A study of Mus musculus with 2 samples.

Results

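Proteasome genes were examined in stromal cells from the bone marrow of C57BL/6 mice after total body irradiation. The members were all genes whose symbol in the platform annotation starts with Psma, Psmb, Psmc, Psmd, Psme, Psmf or Psmg. This gave 40 of the 16390 genes named on the array, each with 1 probe. A ratio was given for 39 of them on both arrays, and Psma8, the testis form of an alpha subunit, had none on either array. Among the 39 were 4 immunoproteasome genes (Psmb8, Psmb9, Psmb10 and Psme1) and 29 constitutive subunits of the 20S core and the 19S regulatory particle. The other members with a ratio were 3 chaperones of the regulatory particle, the activator gene Psme4, the inhibitor gene Psmf1 and Psmc3ip. Psmc3ip shares the name but encodes a meiotic recombination protein and no proteasome subunit. Psme2, the partner of Psme1, was not among the genes named on the array here, and neither were Psma5, Psmb3, Psme3 or Psmb11.

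The groups were unirradiated cells, cells taken 1 day after 9.5 Gy and cells taken 3 days after 9.5 Gy. Each time point had 1 two-colour array, with unirradiated RNA in Cy5 and irradiated RNA in Cy3. The series description gives 6 mice, without their division among the groups or any pooling. The method by which stromal cells were isolated is not stated in the sources used here. Values are the authors' log ratios of the 2 channels, read as log2, with the median over genes set to 0 on each array.

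The proteasome is the protease that breaks down proteins tagged with ubiquitin. Its 20S core is a stack of alpha and beta rings, and the inner beta rings carry the catalytic subunits Psmb5, Psmb6 and Psmb7. The 19S particle caps the core: a ring of ATPases (Psmc genes) unfolds the substrate, and non-ATPase subunits (Psmd genes) bind ubiquitin and remove it. Leukocytes, and other cells exposed to interferon gamma, build in Psmb8, Psmb9 and Psmb10 in place of Psmb5, Psmb6 and Psmb7, which gives the immunoproteasome. Psme1 and Psme2 form the PA28 cap, also induced by interferon gamma, and both changes favour peptides suited to MHC class I.

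The labels do not name the numerator of the ratio. A positive value is taken here to mean more RNA in the irradiated channel; this direction is likely but was not stated. The basis was textbook radiation biology: p53 target genes had a median log2 ratio of 1.60 at day 1 and 1.60 at day 3, erythroid genes -3.18 and -1.93, and mitotic genes -3.24 at day 3. Mitotic genes at day 1 did not follow that pattern, with a median of 0.95. Of 12 such genes 6 were at least 2-fold higher, against 19.6% of all genes. White blood cell genes did not share the low erythroid values at day 1. Their medians were 5.35 for pan-leukocyte, 5.89 for granulocyte, 4.20 for macrophage and 1.64 for lymphoid genes. These lists were not used for the direction. With the opposite numerator every "higher" and "lower" here would be exchanged, while sizes and differences between genes would keep their magnitude. Both arrays were hybridised against unirradiated RNA, which may be 1 shared extract, and no dye swap was used here. Because each time point rests on 1 array, no replicate error and no test are available. Differences are described by size, and a gene counts as higher or lower when its ratio is at least 2-fold (log2 of 1). The spread between different probes of 1 gene, the only spread that could be measured, had a pooled SD of 0.76 (log2, 85 genes) at day 1 and 0.58 (116 genes) at day 3. In a bulk sample a change in the share of a cell type and a change of RNA per cell cannot be told apart.

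Markers of blood cells differed between the arrays. For scale, 19.6% of all genes passed 2-fold upwards at day 1 and 7.35% at day 3, while 6.85% passed it downwards at day 3. Every one of the 15 pan-leukocyte genes measured at day 1 passed 2-fold upwards, with log2 ratios between 4.36 and 8.17 and a median of 5.35. At day 3 only 9 of these genes had a ratio, none of the 9 was at least 2-fold higher and 2 were lower, with a median of -0.02. Granulocyte genes had medians of 5.89 (13 genes) at day 1 and -1.49 (10 genes) at day 3, and macrophage genes 4.20 (8 genes) and 0.92 (6 genes). Lymphoid genes had medians of 1.64 (8 genes) at day 1 and -0.09 (7 genes) at day 3. Stromal markers, which had a ratio for 15 of 17 named genes at day 1 and 16 at day 3, had medians of -0.82 and 0.04. Endothelial markers had medians of 0.66 at day 1, with 3 of 8 genes at least 2-fold higher, and 2.03 at day 3, with 8 of 8 higher. Immunoproteasome genes are constitutively active in leukocytes, so these values stand beside every immunoproteasome result below, and their part in those results was not tested.

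One day after irradiation 3 of the 4 immunoproteasome genes were higher, while the 29 constitutive subunits stayed within 2-fold. Psmb8 (log2 ratio 2.60, 6.04-fold) and Psmb9 (2.55, 5.88-fold) stood at the top of the family. Of the 39 members with a ratio, 4 were at least 2-fold higher, namely Psmb8, Psmb9, Psme1 and the chaperone gene Psmd10. Among all 10434 genes with a ratio the share was 19.6%. Another 2 members were at least 2-fold lower, Psmd9 and Psmc3ip, against 11.1% of all genes. Ribosomal protein genes had a median of -0.51. With that median set to 0 the split among members was 5 higher, all 4 immunoproteasome genes among them, and 1 lower. Among all genes it was then 3322 higher and 373 lower, against 2047 and 1157 with the gene median at 0.

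At 3 days after irradiation the same contrast within the family was present at smaller size. No member was at least 2-fold higher, where 7.35% of all 11404 genes were, and Psmc3ip alone was at least 2-fold lower, where 6.85% were. All 4 immunoproteasome genes lay above 0 and all 29 constitutive subunits below 0, where 50.0% of genes lie by construction, although only 4 of those 29 lay below 0 with the ribosomal median (-0.57) at 0. At day 1, where 50.0% of genes likewise lie below 0, the number was 21 of 29 constitutive subunits, or 2 of 29 with ribosomal protein genes at 0. At day 3 with ribosomal protein genes at 0, the members Psmb8 and Psmb9 passed 2-fold upwards. The split over all genes at day 3 was then 2773 higher and 267 lower, against 838 and 781 with the gene median at 0.

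**Figure D1:**
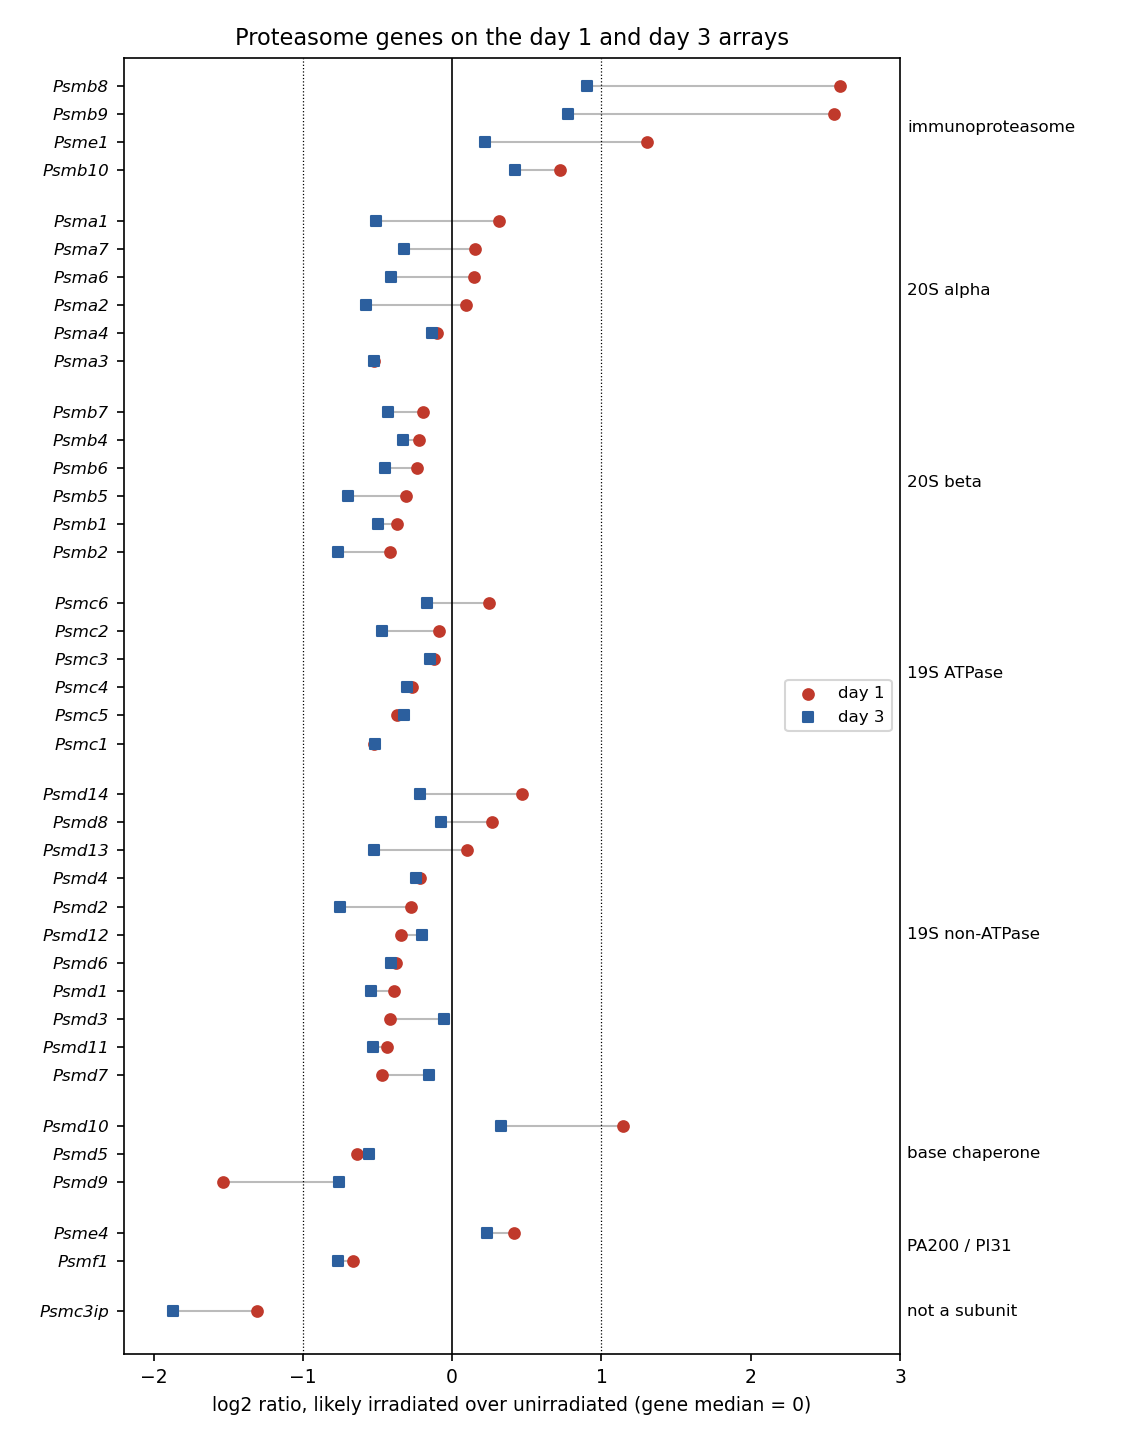
Log2 ratio (x axis, gene median of each array at 0, likely irradiated over unirradiated) of each proteasome gene with a ratio, grouped by role, at day 1 (circles) and day 3 (squares). Psmb8 and Psmb9 stand apart at 2.60 and 2.55 at day 1, while the constitutive subunits lie between -0.52 and 0.47 at day 1 and between -0.76 and -0.05 at day 3. With ribosomal protein genes at 0 the medians of the constitutive subunits would lie above 0. Dotted lines mark 2-fold.

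Psmb8 encodes the immunoproteasome subunit with chymotrypsin-like activity. Its ratio at day 1 stood at percentile 95.2 among the 10434 genes with a ratio, and percentiles below are likewise among genes with a ratio on that array. At day 3 it was 1.87-fold higher (log2 0.91), at the 91.1st percentile. Psmb9, which replaces Psmb6, had nearly the same profile, with log2 ratios of 2.55 at day 1 and 0.77 at day 3, at percentiles 94.9 and 88.1. Psmb10, which takes the place of Psmb7, was within 2-fold on both arrays, at 0.72 and 0.42. With ribosomal protein genes at 0, Psmb10 was at least 2-fold higher at day 1. Its rank among genes hardly differed between the arrays, at percentiles 74.4 and 74.9. Psme1, the alpha chain of PA28, was 2.48-fold higher at day 1 (log2 1.31) and near the middle of the array at day 3 (0.22, percentile 64.0). The 4 genes were thus ordered Psmb8, Psmb9, Psme1 and Psmb10 at day 1, and Psmb8, Psmb9, Psmb10 and Psme1 at day 3. Psmb8 and Psmb9 differed by 0.04 and 0.13, less than the spread between probes of 1 gene.

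Each catalytic subunit of the immunoproteasome was compared with the constitutive subunit whose place it takes. These differences are taken within an array and do not depend on the centring. At day 1 Psmb8 stood at 2.60 and Psmb5 at -0.31, a difference of 2.90 (7.49-fold). Psmb9 stood at 2.55 and Psmb6 at -0.24, a difference of 2.79 (6.93-fold). Psmb10 stood at 0.72 and Psmb7 at -0.20, a difference of 0.92 (1.90-fold). The spread between probes of 1 gene gives a difference between 2 probes an SD of 1.07 at day 1. Only the last pair differed by less. That SD measures no error between samples or between different genes, so it gives a scale of size and no cutoff. At day 3 the differences were 1.60 for Psmb8 minus Psmb5 (0.91 and -0.70), 1.22 for Psmb9 minus Psmb6 (0.77 and -0.45) and 0.85 for Psmb10 minus Psmb7 (0.42 and -0.43), against an SD of 0.82. All 3 differences were positive on both arrays, and the Psmb10 difference was the smallest on each.

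**Figure D2:**
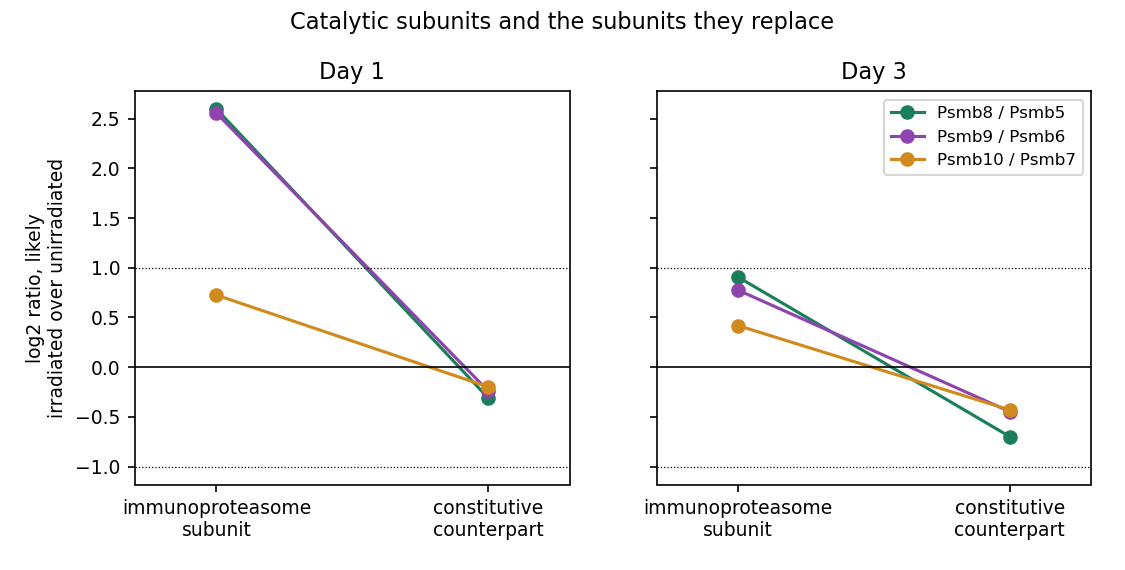
Log2 ratio (y axis, likely irradiated over unirradiated) of the 3 catalytic immunoproteasome subunits and of the constitutive subunit each replaces, joined by a line, at day 1 and day 3. Psmb8 and Psmb9 lie together at 2.60 and 2.55 at day 1 and Psmb10 lies lower at 0.72, while the 3 counterparts lie between -0.31 and -0.20. Dotted lines mark 2-fold.

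As a group, the 4 immunoproteasome genes had a median log2 ratio of 1.93 at day 1, against -0.24 for the 29 constitutive subunits and 0 for all genes by construction. The difference of medians was 2.17, or 4.50-fold. At day 3 the medians were 0.60 for the immunoproteasome and -0.41 for the constitutive subunits, a difference of 1.01, or 2.01-fold. The constitutive medians became 0.27 and 0.16 with ribosomal protein genes at 0, whereas those of the immunoproteasome were 2.44 and 1.16. All 4 immunoproteasome genes lay above the highest of the 29 constitutive Psm subunits on both arrays, Psmd14 (0.47) at day 1 and Psmd3 (-0.05) at day 3. That position was shared by 32.7% of all genes at day 1 and 53.5% at day 3. With more than 50.0% of all genes in that position at day 3, the count there is no result about the immunoproteasome.

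**Figure D3:**
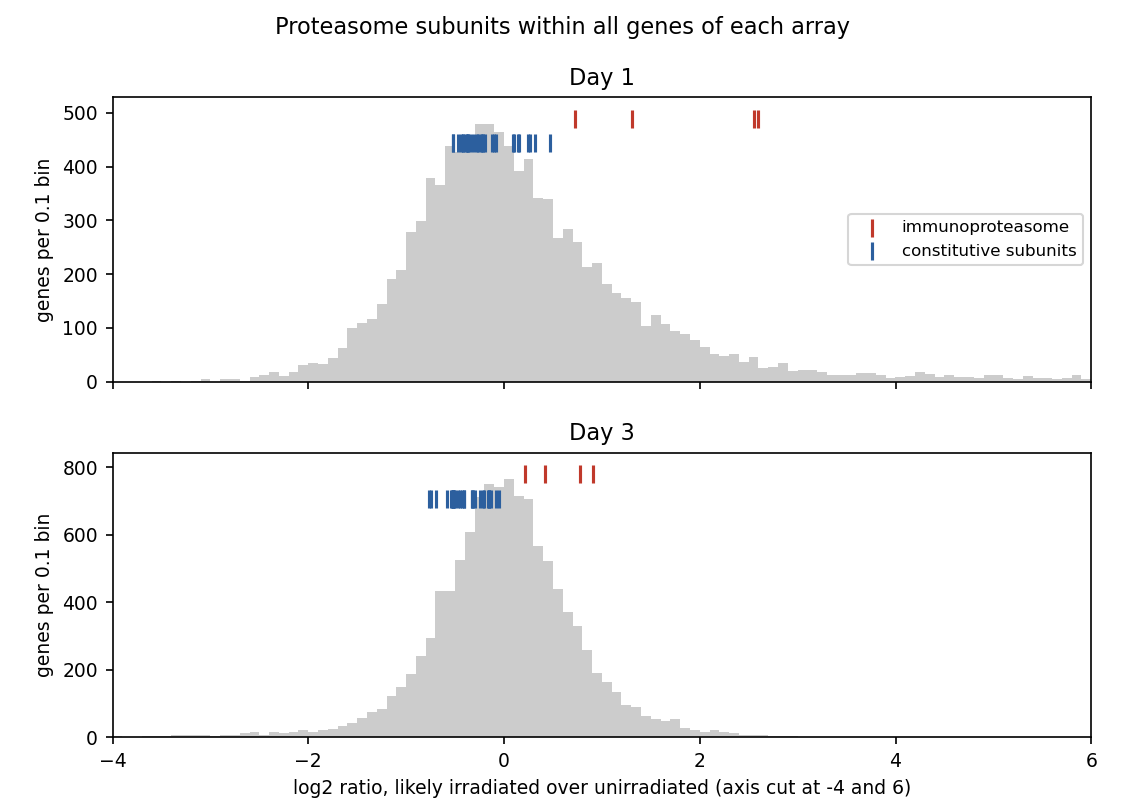
Number of genes per 0.1 step of log2 ratio (grey bars, gene median at 0, likely irradiated over unirradiated) at day 1 and day 3, with a tick for each immunoproteasome gene and each constitutive subunit. The constitutive ticks crowd into a range narrower than that of all genes, with SDs of 0.28 at day 1 and 0.20 at day 3 against 1.33 and 0.76. With ribosomal protein genes at 0 the constitutive medians would be 0.27 and 0.16.

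The sequences upstream of the start site are shown for the first 2 exchange pairs, whose members stand furthest apart in the data. They are the RefSeq promoter entries (GRCm38.p6), cut to the 250 bases before the start and printed 5′ to 3′ on the strand of the gene. Entries were found for 33 of the 40 members, and Psmb7 was not among them. The 2 motifs searched on both strands were the core of the interferon-stimulated response element (GAAA, any 2 bases, GAAA) and TGACNNNGC, the core of the antioxidant response element bound by Nfe2l1 and Nfe2l2. Capitals mark every match. Psmb8 lies at chr17:34197945-34198194, plus strand, Psmb5 at chr14:54617996-54618245, minus strand, Psmb9 at chr17:34187331-34187580, minus strand and Psmb6 at chr11:70525107-70525356, plus strand.
Psmb8: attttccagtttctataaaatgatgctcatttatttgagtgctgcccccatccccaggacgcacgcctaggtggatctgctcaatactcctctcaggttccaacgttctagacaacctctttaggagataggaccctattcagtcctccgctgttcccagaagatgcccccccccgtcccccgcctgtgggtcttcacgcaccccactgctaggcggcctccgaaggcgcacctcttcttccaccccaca
Psmb5: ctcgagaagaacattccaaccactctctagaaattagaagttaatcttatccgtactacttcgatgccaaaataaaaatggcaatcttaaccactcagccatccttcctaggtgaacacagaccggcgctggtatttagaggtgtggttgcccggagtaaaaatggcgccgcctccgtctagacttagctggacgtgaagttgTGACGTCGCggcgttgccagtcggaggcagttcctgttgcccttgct
Psmb9: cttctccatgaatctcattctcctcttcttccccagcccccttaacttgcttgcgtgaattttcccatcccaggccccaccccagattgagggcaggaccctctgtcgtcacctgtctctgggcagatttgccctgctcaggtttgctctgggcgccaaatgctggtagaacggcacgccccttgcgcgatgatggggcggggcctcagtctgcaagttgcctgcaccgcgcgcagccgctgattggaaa
Psmb6: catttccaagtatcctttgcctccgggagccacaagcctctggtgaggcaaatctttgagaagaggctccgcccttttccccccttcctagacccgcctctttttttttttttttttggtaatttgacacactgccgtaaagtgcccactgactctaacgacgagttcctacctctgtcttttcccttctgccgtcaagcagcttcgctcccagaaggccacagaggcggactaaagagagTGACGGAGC

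In these windows Psmb5 and Psmb6 each held a match to the antioxidant core, at 47 to 39 and at 9 to 1 bases before the start. Psmb8 and Psmb9 held no match to either motif in this window. The antioxidant core was present for 0 of 4 immunoproteasome genes and 4 of 23 constitutive subunits (Psmb5, Psmb6, Psmc6 and Psmd12), or 17.4%, against 10.2% of all 32851 promoter windows. The interferon core was present for 0 of 4 and 1 of 23 (Psmd4), against 2.98%. Members were counted per gene and the background per window, with 32851 windows for 27025 genes, so the shares differ in unit. No overlap between motifs occurred in the sequences shown. Matches of this length are common in promoters and describe the letters of the window, not a bound site.

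The 6 constitutive beta subunits lay close together at day 1. At day 1 they lay between Psmb2 (-0.42) and Psmb7 (-0.20), with a median of -0.27 and an SD over genes of 0.09. At day 3 they lay between Psmb2 (-0.76) and Psmb4 (-0.33), with a median of -0.47 and an SD of 0.17, like that of the alpha subunits (0.16). All 6 were below the gene median on both arrays, but their medians became 0.24 and 0.093 with ribosomal protein genes at 0. Psmb5, the constitutive chymotrypsin-like subunit, stood at -0.31 and -0.70, and Psmb1, a structural beta subunit, at -0.37 and -0.50. All 6 had a lower ratio at day 3 than at day 1, with differences between -0.39 and -0.11.

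The 6 alpha subunits, which form the outer rings and the gate of the core, were more spread at day 1. Psma1 stood at 0.32, Psma7 at 0.15, Psma6 at 0.15 and Psma2 at 0.09, above the gene median, while Psma4 was at -0.10 and Psma3 at -0.52. Their median was 0.12. At day 3 all 6 were below the gene median, between Psma2 (-0.58) and Psma4 (-0.13), with a median of -0.46 that became 0.11 with ribosomal protein genes at 0. The ratio of Psma1 differed by -0.83 between day 3 and day 1, the widest step among constitutive subunits, whereas Psma3 was at -0.52 on both arrays.

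The 6 ATPases of the 19S base had medians of -0.19 at day 1 and -0.31 at day 3, or 0.32 and 0.26 with ribosomal protein genes at 0. Psmc6 was highest at day 1 (0.25) and Psmc1 lowest (-0.52). At day 3 the highest was Psmc3 (-0.15) and the lowest again Psmc1 (-0.52). Psmc2 stood at -0.09 and -0.47. Of the 6 ATPases, Psmc1, Psmc3, Psmc4 and Psmc5 differed by less than 0.05 between the arrays. The 11 non-ATPase subunits had medians of -0.34 and -0.24, or 0.17 and 0.32 with ribosomal protein genes at 0. Psmd14, the deubiquitinase of the lid, was the highest at day 1 at 0.47 and stood at -0.21 at day 3. Psmd2, a large scaffold subunit that docks ubiquitin shuttles, was at -0.28 and lowest of the group at day 3 (-0.75). Psmd4, a ubiquitin receptor, was nearly level between the arrays at -0.22 and -0.24. The lid and base subunits Psmd1 (-0.39 and -0.54), Psmd6 (-0.38 and -0.41), Psmd11 (-0.44 and -0.53) and Psmd12 (-0.34 and -0.21) were below the gene median on both arrays, a position that reverses with ribosomal protein genes at 0. Psmd8 was at 0.27 and -0.08, and Psmd13 at 0.10 and -0.52. Psmd3 and Psmd7 went the other way from most, with ratios higher at day 3 than at day 1 by 0.36 and 0.31. None of the 29 constitutive subunits in these 4 groups was outside 2-fold on either array, where 30.7% of all genes were at day 1 and 14.2% at day 3.

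The accessory members differed from one another. The 3 chaperones that help assemble the 19S base spanned the widest range of any role at day 1. Psmd10, known as gankyrin and also a partner of the retinoblastoma protein and Mdm2, was 2.22-fold higher (log2 1.15). Psmd9 was 2.90-fold lower (log2 -1.53, percentile 3.37), and Psmd5 stood at -0.64. At day 3 the range was narrower, with Psmd10 at 0.33, Psmd9 at -0.76 and Psmd5 at -0.56. Psme4, which encodes the PA200 activator, was at 0.41 and 0.24. Psmf1, whose product PI31 inhibits the core in vitro, was at -0.66 and -0.77. Chaperones of the core were named on the array under older symbols and so fell outside the membership rule: Psmg1 stood at -0.41 and -0.86, Psmg2 at -0.57 and -0.41, and Psmg3 at -0.45 and -0.92. All of these accessory values other than those of Psmd10 and Psmd9 at day 1 were within 2-fold. Psmc3ip, the gene that only shares the prefix, was 2.47-fold lower at day 1 (log2 -1.31) and 3.65-fold lower at day 3 (-1.87).

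Between the time points, the immunoproteasome genes had lower ratios at day 3 than at day 1. Psmb9 stood at 0.77 at day 3 and 2.55 at day 1, a difference of -1.78. Psmb8 differed by -1.69 (0.91 at day 3 and 2.60 at day 1) and Psme1 by -1.09 (0.22 and 1.31). These 3 were the members at least 2-fold lower at day 3, where 16.8% of all 9800 genes with both ratios were. Psmb10 differed by -0.31 (0.42 at day 3 and 0.72 at day 1). The ratios of all genes were spread less at day 3, with an SD of 0.76 against 1.33 at day 1. Psmb8 stood at percentile 91.1 at day 3 and 95.2 at day 1, Psmb9 at 88.1 and 94.9, and Psme1 at 64.0 and 85.3. The median difference was -1.39 for the 4 immunoproteasome genes, -0.15 for the 29 constitutive subunits and -0.04 for all genes. Of the 29 constitutive subunits, 23 had a lower ratio at day 3 than at day 1, against 52.1% of all genes. That number was 18 with ribosomal protein genes at 0 and 27 with the density peak of each array at 0. The share of all genes was not counted for these 2 centrings. No member was at least 2-fold higher at day 3, against 12.1% of all genes, and Psmd9 came closest with 0.78. With the density peak of each array at 0, 5 members were at least 2-fold lower, and the split over all genes was 801 higher and 2034 lower, against 1182 and 1648. Over the same interval pan-leukocyte genes had a median difference of -5.99, with all 9 genes at least 2-fold lower.

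Genes that work with the immunoproteasome in class I presentation were higher in part. Of 11 with a ratio, 4 passed 2-fold upwards at day 1 (median 0.69) and 1 did at day 3 (median 0.37), and none passed it downwards. Over all genes the shares passing upwards were 19.6% and 7.35%. Tap1 and Tap2, both chains of the peptide transporter, alternate with Psmb9 and Psmb8 on chromosome 17 in the order Psmb9, Tap1, Psmb8 and Tap2, with no other coding gene between them. At day 1 the 4 neighbours lay close together, at 2.55, 2.32, 2.60 and 2.14. At day 3 they stood at 0.77, 0.59, 0.91 and 1.33, and Tap2 alone was past 2-fold. Tapbp, which couples the transporter to class I, was at 1.42 and 0.91, and B2m, the light chain of class I, at 1.36 and 0.37. The general endoplasmic reticulum chaperone Canx was at -0.13 and -0.23, and Nlrc5, the transactivator of class I genes, at -0.07 and 0.15.

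Interferon-related genes are given beside these values, where 19.6% of all genes passed 2-fold upwards at day 1 and 7.35% at day 3. Among 14 signalling genes, 5 passed 2-fold upwards at day 1 and none at day 3, with medians of 0.76 and 0.60. Irf8, a myeloid interferon regulatory factor, was at 3.18 and 0.82, and Irf9, part of the type I interferon complex, at 2.33 and 0.71. Irf1, the factor through which interferon gamma activates Psmb9, was at 0.15 at day 1 and 0.76 at day 3, and Socs1, a feedback inhibitor, at -0.34 and -0.33. Ifng, the gene of interferon gamma itself, was at 2.31 at day 1 and had no ratio at day 3. Of 7 interferon-inducible GTPase genes with a ratio, 4 passed 2-fold upwards at day 1 and 4 at day 3, with medians of 1.53 and 1.37. Gbp7 (2.86 and 0.90) was lower at day 3, as the immunoproteasome was, while Gbp6 (2.44 and 2.27) and Tgtp1 (0.32 and 1.67) were past 2-fold at day 3. The GTPase list differed by a median of -0.17 between day 3 and day 1, against -1.39 for the immunoproteasome. No test of that contrast could be made.

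Partners of the proteasome overlapped with its constitutive subunits at day 1, though their median was higher (0.64 and -0.24). Of 13 partners with a ratio, 3 passed 2-fold upwards at day 1, near the 19.6% of all genes, and none did at day 3, when their median was 0.24. These were Nfe2l2 (1.35), Sem1 (1.08), a small lid subunit outside the Psm names that lay above Psmb10 at day 1, and Txnl1 (1.03), a thioredoxin bound to the 19S particle. Nfe2l1, which drives the genes of constitutive subunits when the proteasome is impaired, stood at -0.07 and 0.46. Pomp, the maturation factor of the core, was at 0.31 and -0.22, the ubiquitin receptor Adrm1 at -0.40 and -0.51, and the deubiquitinase Usp14 at 0.35 and 0.24. Among 11 genes of ubiquitin activation and shuttling none was outside 2-fold on either array. Their medians were 0.05 and -0.31, the second of which became 0.25 with ribosomal protein genes at 0. They ranged at day 1 from Ubqln4 (-0.47) to Uba7 (0.81), and at day 3 from Ubqln4 (-0.67) to Ufd1 (0.71).

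**Figure D4:**
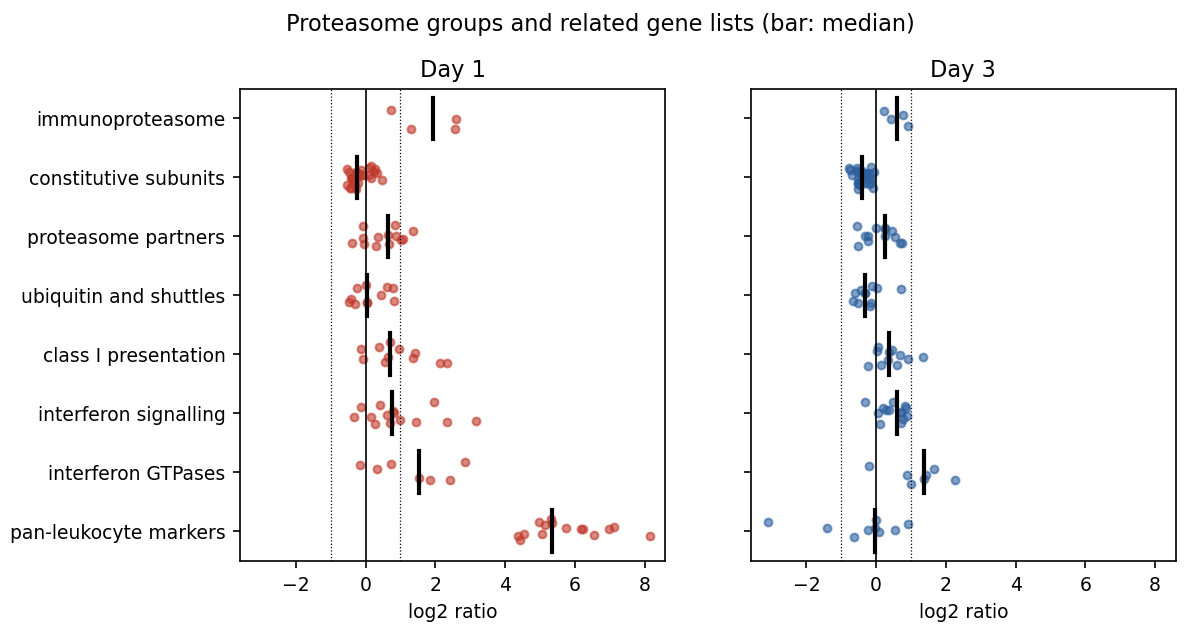
Log2 ratio (x axis, gene median at 0, likely irradiated over unirradiated) of every gene with a ratio in 8 gene groups, with a bar at each group's median, at day 1 and day 3; points are offset vertically at random. The pan-leukocyte median is 5.35 at day 1 and -0.02 at day 3, and that of the immunoproteasome 1.93 and 0.60. The constitutive medians of -0.24 and -0.41 and the day 3 median of ubiquitin and shuttle genes (-0.31) become positive with ribosomal protein genes at 0.

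Common reference genes did not agree on a zero line at day 1. Gapdh stood at 2.69 and Hprt at -0.02 at day 1, against 0.09 and -0.38 at day 3. With Hprt as the zero the immunoproteasome median would be 1.95 at day 1 and 0.98 at day 3, and the constitutive median -0.22 and -0.03.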

How the data were processed

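The authors deposited 1 table of log2 ratios (base read as 2; base, scanner, background subtraction, normalisation and numerator are not given in the sources used here), 1 value per probe and array. Ratios were missing for 40.5% of the 23473 probes at day 1 and for 34.3% at day 3. Signal over background could not be examined, and precision is limited by there being 2 arrays. Per the labels, RNA was amplified as amino allyl RNA; unirradiated RNA carried Cy5 and irradiated RNA Cy3.

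Symbols came from the platform annotation and were updated through RefSeq genes (GRCm38.p6): of 16631 named probes, 12622 had a current symbol and 3947 an older name of 1 gene. Probes were averaged per gene and the gene median subtracted (-0.01 at day 1, 0.02 at day 3) with pandas 2.3.3 in Python 3.11.15. A gene was called at 2-fold. No test was made, since each time point has 1 array. The counting by the size rule was run on simulated ratios with little noise and large planted changes. That run checked the code only, and it cannot show how the rule behaves on these arrays. Alternatives were the centring, the probe rule, the genes kept, the size rule and mean for median. Genes that could be named were all members, in each list the 2 highest and 2 lowest genes (mean over the available arrays), and a short set (Irf1, Nlrc5, Nfe2l1, Tap1, Tap2, Tapbp, Pomp, Sem1, Adrm1, Usp14, Gapdh, Hprt and B2m). Another gene of this set and 1 promoter motif are not reported here. Txnl1, Uba7 and the genes under older names were named after their values were seen. The members and lists were chosen with earlier results of these data known.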

Additional observations from a re-analysis of the deposited data

Results flagged for a closer look

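No proteasome gene was at least 2-fold one way on one array and at least 2-fold the other way on the other. Among the marker genes of other cells that the naming rule picked (2 highest and 2 lowest of each list), 4 were, as was 1 list median. Each was higher at day 1 and lower at day 3, and the differences were not tested. Other genes of these lists outside that rule, Ltf and S100a8 among them, were also at least 2-fold higher at day 1 and at least 2-fold lower at day 3. The share of all genes past 2-fold in opposite directions was not counted. These counts are therefore no result about the proteasome or the marker genes. For day 3 minus day 1 the values were -8.90 for Camp, -7.93 for Ngp, -8.15 for Rac2, -6.53 for Coro1a and -7.83 for the median of the granulocyte list.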

How the results depend on the processing

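No paired analysis was possible because each time point has 1 array. The centring, the probe rule and the genes kept could not move the difference between immunoproteasome and constitutive subunits. Each of these genes has 1 probe and a ratio on both arrays. Only means and narrower sets of subunits could move that difference, and it kept its sign under them. It lay between 1.96 (means) and 2.79 (the 3 catalytic subunits) at day 1 and between 0.97 and 1.19 at day 3. For day 3 minus day 1 it lay between -0.996 and -1.54. The exchange pairs were unaffected, each gene having 1 probe. The constitutive median changed sign with ribosomal protein genes at 0, to 0.27 at day 1 and 0.16 at day 3, as did those of the beta subunits (0.24 and 0.093), ATPases (0.32 and 0.26) and non-ATPases (0.17 and 0.32), the alpha subunits (0.11) and ubiquitin genes (0.25) at day 3, and the ATPases for day 3 minus day 1 (0.024). This follows from the centring, since the ribosomal median lay at -0.51 at day 1 and -0.57 at day 3. It also gave 1 member lower at day 1 and 2 higher at day 3, with 3322 and 2773 genes higher and 373 and 267 lower in all. The density peak at 0 gave 5 members lower for day 3 minus day 1, with 801 genes higher and 2034 lower in all. At 1.5-fold, 5 members were higher and 4 lower at day 1, 2 and 6 at day 3, and 1 and 8 for the difference. Over all genes 1.5-fold gave 3069 higher and 2536 lower at day 1, 2038 and 2000 at day 3, and 2330 and 2638 for the difference. At 3-fold, 2 members were higher and 0 lower at day 1, 0 and 1 at day 3, and 0 and 2 for the difference. Over all genes 3-fold gave 1191 and 300 at day 1, 252 and 259 at day 3, and 308 and 918 for the difference. An alternative chosen after seeing the data was to read the values as natural logs. Then 5 members were higher and 2 lower at day 1, 2 and 6 at day 3, and 1 and 5 for the difference. In all genes this gave 2750 higher and 2136 lower at day 1, 1632 and 1529 at day 3, and 1994 and 2330 for the difference.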
